A study of Homo sapiens with 24 samples.

Results

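The 10 genes described here are NDRG1, VEGFA, ADM, BNIP3, PDK1, SLC2A1, LDHA, ENO1, ALDOA and PGK1, textbook targets of the response to low oxygen and enzymes of glycolysis. They were named by symbol, and 9 of the 10 had a row among the 16591 gene symbols of the deposited table. ALDOA had none. All 24 libraries were used. Cultured cancer cells had received 5 µM EPZ015666, which blocks the methyltransferase PRMT5, or DMSO, the vehicle, before poly(A) RNA was sequenced on stranded libraries. The groups were EPZ015666 and DMSO at day 5 and at day 3 in BT549 (breast) and OVCAR8 (ovarian), and EPZ015666 and DMSO at day 5 in COV362 (ovarian) and MDAMB436 (breast). Each of the 12 groups had 2 libraries, A and B, and no library of an untreated culture without DMSO was among them. The labels give neither the oxygen level nor the glucose of the medium, and they do not say whether A and B were separate cultures, so p-values reflect only how far the libraries of a group lie apart, and that spread can be technical. Each tissue was represented by 2 established lines.

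In normal oxygen, prolyl hydroxylases (the EGLN proteins) mark the alpha subunits of the hypoxia-inducible factors, HIF1A and EPAS1, for destruction through VHL. When oxygen is scarce the alpha subunits persist, pair with ARNT and bind short DNA elements with the core ACGTG or GCGTG near their target genes. The targets raise glucose uptake and glycolysis, divert pyruvate to lactate, and signal for new vessels. Many tumour lines keep glycolysis high with oxygen present, and several of these genes also answer to MYC, to glucose and to stress pathways.

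The elements can be seen in the promoters. RefSeq (GRCh38.p14) gave 12 promoter windows for 8 of the genes, and 11 of the 12 held at least 1 core on either strand, within 250 bases before and 50 after the start. Among all 35116 RefSeq windows 48.45% did, as did 60.34% of the 14081 windows whose genes have expression values here, so a single core says little. The 5 windows below, the 250 bases before the start, are shown because they run from 1 core (ADM) to a cluster of 6 (BNIP3). Capitals mark the core ACGTG or GCGTG on either strand. A palindrome of the E-box type CACGTG, which MYC also binds, counts once on each strand.
LDHA, chr11:18394313-18394562, plus strand: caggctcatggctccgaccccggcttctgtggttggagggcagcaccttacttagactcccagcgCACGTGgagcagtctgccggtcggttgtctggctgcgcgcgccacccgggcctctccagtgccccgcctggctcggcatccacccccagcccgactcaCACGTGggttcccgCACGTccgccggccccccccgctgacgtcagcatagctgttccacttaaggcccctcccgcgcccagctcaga
BNIP3, chr10:131981924-131982173, minus strand: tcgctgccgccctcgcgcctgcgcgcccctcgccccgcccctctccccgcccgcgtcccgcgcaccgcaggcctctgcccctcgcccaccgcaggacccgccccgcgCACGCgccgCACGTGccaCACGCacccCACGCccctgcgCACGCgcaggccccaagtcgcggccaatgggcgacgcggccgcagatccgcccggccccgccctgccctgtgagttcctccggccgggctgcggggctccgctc
PGK1, chrX:78103998-78104247, plus strand: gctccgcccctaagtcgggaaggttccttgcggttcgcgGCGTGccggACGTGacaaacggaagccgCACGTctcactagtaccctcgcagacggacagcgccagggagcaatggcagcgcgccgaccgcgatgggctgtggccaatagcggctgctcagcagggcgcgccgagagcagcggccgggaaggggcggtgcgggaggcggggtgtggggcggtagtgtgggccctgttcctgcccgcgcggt
ENO1, chr1:8878687-8878936, minus strand: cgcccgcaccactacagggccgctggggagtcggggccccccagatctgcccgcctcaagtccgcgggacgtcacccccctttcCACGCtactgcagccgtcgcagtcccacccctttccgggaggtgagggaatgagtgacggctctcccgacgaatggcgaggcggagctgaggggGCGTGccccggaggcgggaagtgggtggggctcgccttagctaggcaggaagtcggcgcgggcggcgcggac
ADM, chr11:10304823-10305072, plus strand: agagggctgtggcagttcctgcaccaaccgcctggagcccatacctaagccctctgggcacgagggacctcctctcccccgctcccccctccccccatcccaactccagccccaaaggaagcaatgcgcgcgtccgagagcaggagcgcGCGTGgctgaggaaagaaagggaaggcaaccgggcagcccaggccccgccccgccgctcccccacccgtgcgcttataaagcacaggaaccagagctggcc
Before the start, LDHA held 5 matches in the window shown, BNIP3 6, PGK1 3, ENO1 2 and ADM 1. The other window of LDHA held 1. The window of SLC2A1 held none before the start and 1 at base 25 after it, and a window of PDK1 held none at all. Over the whole window, 6 of the 12 held 2 or more cores and 3 held 3 or more. Of windows whose genes have expression values 31.57% and 14.41% did. The number of cores was not tested against the response to the drug. A match is a run of letters and not a site shown to be bound, and the known distal elements of these genes lie outside such windows.

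Levels are RPKM, reads scaled to gene length and to a total per library. How that total was made is not given, and it was not the number of reads recovered from the values. In BT549 at day 5 it was 25.0 M against 26.7 M recovered in DMSO replicate A. In EPZ015666 replicate A it was 24.6 M against 24.8 M. Small changes therefore depend on the total used. The length behind each value was the whole span of the gene, introns included, in GENCODE v29. The span of PGK1 (chrX:77910739-78129296) is 218.6 kb, of which 5.51 kb is exonic, and the span as annotated takes in the gene ATP7A. ADM (chr11:10304680-10307397) has 2.72 kb, all of it exonic. Levels of different genes are therefore not comparable as deposited. In BT549 under DMSO at day 5, PGK1 had 8.38 RPKM against 10.4 RPKM for ADM, but 332.1 against 10.4 when the same reads were set against exonic length. Ratios between libraries within a gene are not touched by the span, but they do depend on the total per library. Changes below are given as differences in log2(RPKM + 1) ± SE, and the added 1 makes them smaller than the log2 fold for low genes such as NDRG1 (chr8:133237171-133302022), PDK1 (chr2:172555373-172608669) and SLC2A1 (chr1:42925375-42959176). A fold is the ratio of the group means of RPKM. The added 1 and the filter at a mean of 1 RPKM, below which genes were not tested, do act on values per span. PGK1 in COV362 thus changed by 0.42 at day 5, against a log2 fold of 0.54. PDK1, not tested in MDAMB436, had 0.865 RPKM there under DMSO at day 5 but 3.10 when set against exonic length.

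**Figure D1:**
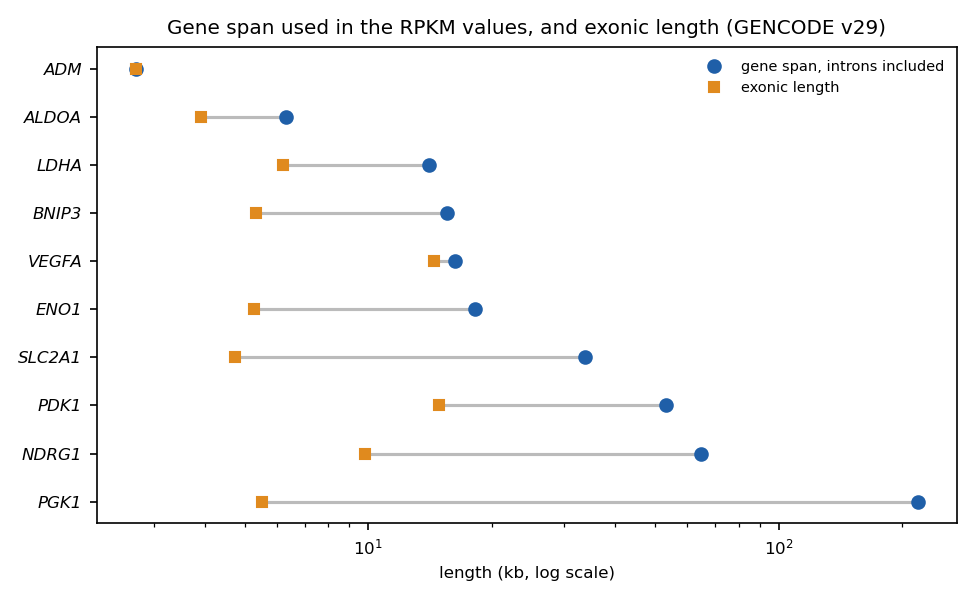
The dots give the gene span that the RPKM values were divided by and the squares the exonic length, in kb on a log axis, for the 10 genes. The span of PGK1 is 218.6 kb with 5.51 kb exonic, while both lengths of ADM are 2.72 kb.

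ALDOA, the aldolase of muscle and of most tumour cells, is placed at chr16:30064164-30070457 on the plus strand. In the annotation 99.06% of its exonic bases lie under AC093512.2, a gene of the same strand. Of 923 protein-coding symbols that lie fully under another gene of their strand, 25 (2.709%) had a row in the table, against 10476 of 16234 (64.53%) of those under none. HIF1A had a row, but its exonic bases are 64.16% under AL137129.1 on the same strand, and it was listed at 0.00812 to 0.168 RPKM in the 24 libraries. That row is not read as a level of HIF1A here. Of the 9 genes with values, none has over 2.5% of its exonic bases under another gene of the same strand. ENO1, SLC2A1, PDK1, VEGFA, BNIP3 and PGK1 have genes on the opposite strand within their spans, and the counting was not stated to use strand. Reads of LDHA, ENO1 and PGK1 may also be shared with their processed copies elsewhere in the genome.

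The libraries held 23.75 to 44.94 M reads in genes, and the least read of the 9 genes in any library was ADM with 144 reads. Ribosomal RNA genes on 21p took 4.55% of the reads in EPZ015666 day 5 replicate B of OVCAR8 and 1.39% in EPZ015666 day 3 replicate A of BT549, against a median of 0.293% over all libraries. The cell type markers agreed only in part with the labels. Of 5 epithelial markers with a row, 5 had a mean of at least 1 RPKM in COV362, 3 in OVCAR8, 2 in MDAMB436 and 1 in BT549, where EPCAM, KRT7, KRT8 and KRT19 were near 0. Of 5 mesenchymal markers, 4 had a mean of at least 1 RPKM in COV362, 3 in BT549, 3 in OVCAR8 and 1 in MDAMB436. Vimentin averaged 48.9 to 120 RPKM in the 4 lines. SPARC ran from 67.1 RPKM in BT549 to 0.0153 in MDAMB436, and FN1 from 10.6 in OVCAR8 to 0.43 in MDAMB436. CDH2 was at most 1.15 RPKM (COV362) and ZEB1 at most 0.359 (BT549) as a mean of a line. PAX8, a marker of ovarian tumours, had 0.326 RPKM in COV362 and 0.0713 in OVCAR8, against 0.000256 in MDAMB436 and 8.6e-05 in BT549. MUC16, the CA-125 antigen, was highest in COV362 at 0.501 RPKM but 9.96e-05 in OVCAR8, while WT1 was highest in BT549 at 0.173. The breast marker GATA3 had 4.57 RPKM in BT549 and 0.0601 in MDAMB436. PECAM1 and CDH5, which mark endothelium, were at most 0.811 RPKM as a mean of a line, and the monocyte marker CD14 was highest in MDAMB436 at 4.29 RPKM.

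Under DMSO at day 5 the 4 lines stood far apart. All 8 genes that could be tested in every line (mean of at least 1 RPKM in each) differed between lines in the F test of limma, but so did 98.4% of the 4721 genes tested. SLC2A1, the glucose transporter GLUT1, had 14.0 and 13.7 RPKM in COV362, 4.57 and 4.41 in MDAMB436, 2.51 and 2.67 in OVCAR8, and 2.28 and 2.35 in BT549, a range of 5.98-fold between the group means. ADM, which encodes the vasodilator peptide adrenomedullin, ran the other way, with 10.8 and 10.1 RPKM in BT549, 9.16 and 8.55 in OVCAR8, 6.01 and 4.76 in MDAMB436, and 1.65 and 1.51 in COV362 (6.60-fold). COV362 was thus highest of the lines in SLC2A1 and lowest in ADM.

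VEGFA (chr6:43770184-43786487), the vascular growth factor, was lowest in OVCAR8 at 0.991 and 0.982 RPKM and highest in BT549 at 4.65 in both libraries. BNIP3 (chr10:131966455-131982013), a mitochondrial protein that promotes mitophagy, averaged 14.4 RPKM in BT549, 10.5 in MDAMB436, 4.07 in OVCAR8 and 3.08 in COV362. ENO1, PGK1 and LDHA were also highest in BT549. ENO1 (enolase, chr1:8861000-8879250) averaged 357.3 RPKM there, 210.3 in COV362, 126.3 in OVCAR8 and 97.0 in MDAMB436. PGK1, which makes the first ATP of glycolysis, averaged 8.38 RPKM in BT549, 4.24 in MDAMB436, 2.95 in COV362 and 2.14 in OVCAR8. LDHA (chr11:18394388-18408425), which turns pyruvate into lactate, spanned only 1.58-fold, from 78.1 RPKM in BT549 to 49.5 in MDAMB436. NDRG1, a stress-inducible gene that restrains growth and spread in several tumours, had the narrowest range, 2.02 RPKM in COV362 to 1.46 in MDAMB436. PDK1, the kinase that switches off pyruvate dehydrogenase, averaged 1.44 RPKM in BT549 and under 1 in the other 3 lines, so it was tested in BT549 only. In the order of levels of the 8 tested genes, neighbouring lines differed at an adjusted p under 0.05 in all cases but LDHA in OVCAR8 and COV362 (56.8 and 56.3 RPKM, adjusted p = 0.804). Of these neighbouring pairs, the 3 of NDRG1 and 1 each of ADM, SLC2A1 and VEGFA ended without one of the libraries compared (adjusted p = 0.0577 to 0.24). The share of all genes past the threshold was 83.3% for BT549 minus OVCAR8, 83.4% for BT549 minus COV362, 85.6% for BT549 minus MDAMB436, 83.1% for OVCAR8 minus COV362, 87.2% for OVCAR8 minus MDAMB436 and 83.8% for COV362 minus MDAMB436.

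**Figure D2:**
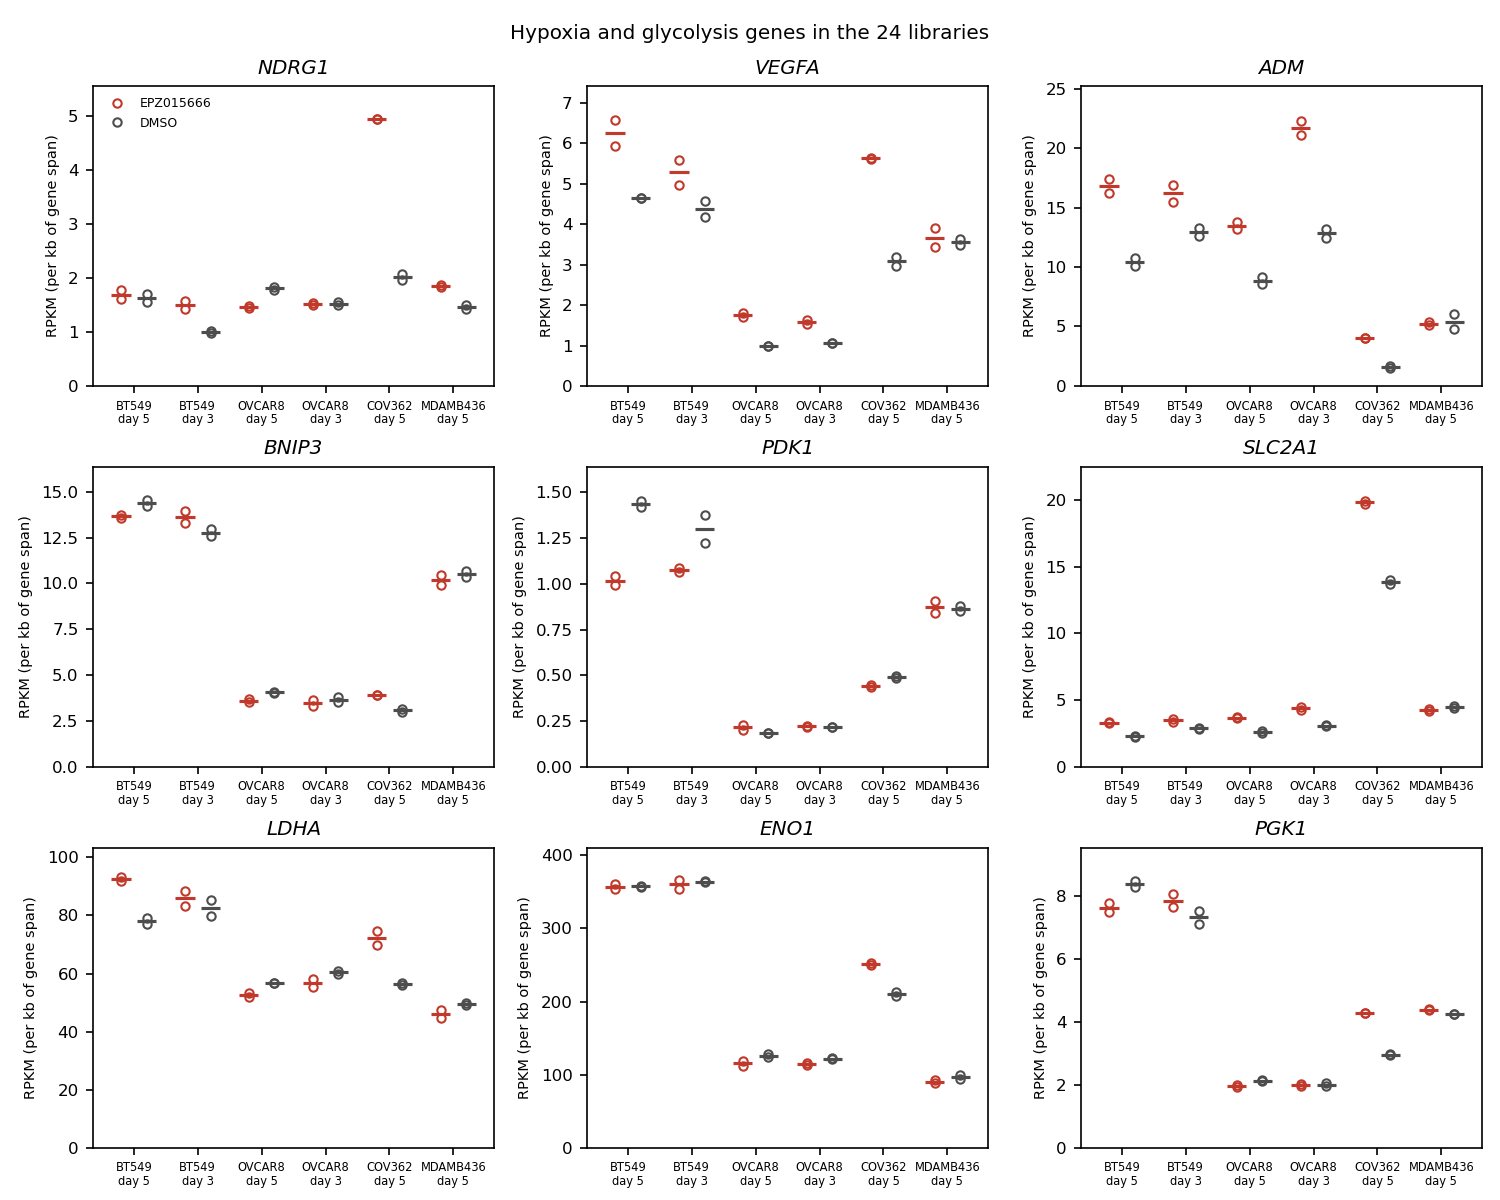
RPKM per kb of gene span of the 9 genes in the 24 libraries, one panel per gene and linear axes from 0. Circles are libraries and bars are means of 2 libraries, with EPZ015666 left of DMSO in each line and day. In COV362 the drug libraries of NDRG1 (4.94 in both) lie far above those of DMSO (2.07 and 1.97).

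Under EPZ015666 the 9 genes differed in how many of the 6 comparisons passed. ADM and SLC2A1 rose in 5 of 6 comparisons each and VEGFA in 4 of 6, none of them falling in any. LDHA rose in 2 and fell in 1, ENO1 rose in 1 and fell in 1, and BNIP3 and PGK1 rose in 1. NDRG1 rose in 3 and fell in 1, and PDK1 fell in both comparisons in which it was tested, those of BT549. In a single comparison 9.22% to 39.3% of all genes rose and 10.8% to 35.1% fell. The share of all genes that passed in several comparisons is not given here, and the 2 days of a line share a fit. The same limit holds for the counts of other genes over the comparisons below. RNA of whole cultures was measured, so less RNA per cell and fewer cells of one kind cannot be told apart.

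**Figure D3:**
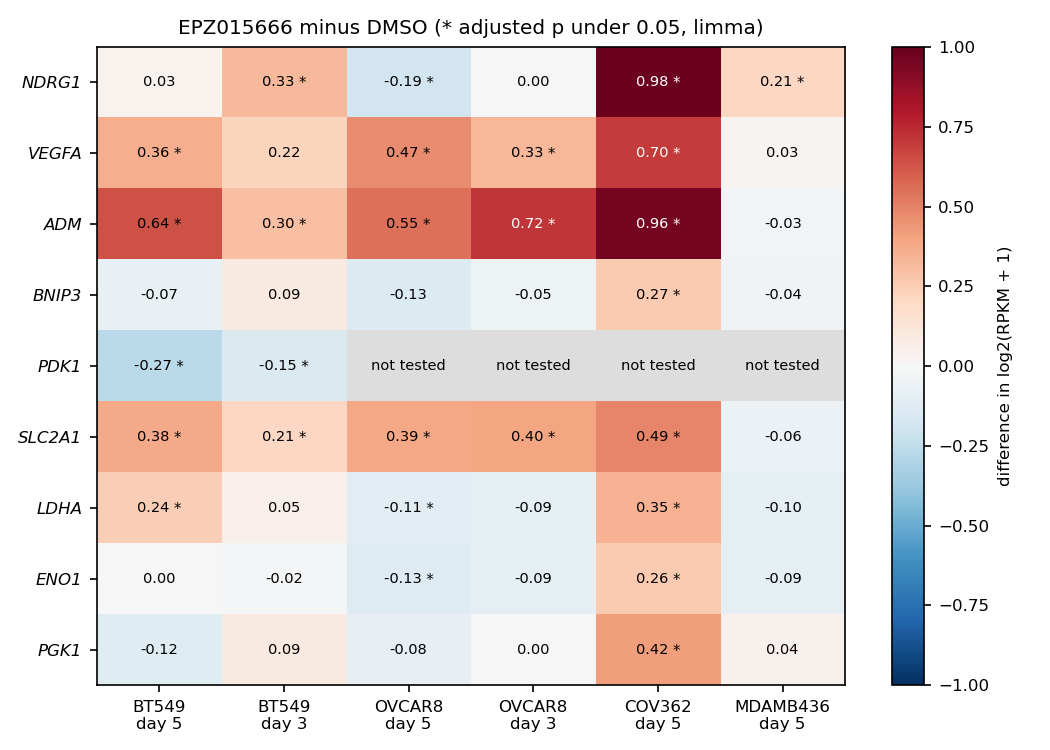
EPZ015666 minus DMSO in log2(RPKM + 1) for the 9 genes (rows) and the 6 comparisons of line and day (columns), with an asterisk for an adjusted p under 0.05 in limma. The column of COV362 holds the largest rise of each gene but PDK1, up to 0.98 for NDRG1, and PDK1 was not tested in 4 of the columns.

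In COV362 at day 5 all 8 tested genes rose, where 39.3% of all genes tested rose and 31.5% fell. Their median change was 0.45, against 0.03 over all genes. NDRG1 had 4.94 RPKM in both EPZ015666 libraries, against 2.07 and 1.97 RPKM under DMSO, a 2.45-fold difference (0.98 ± 0.03, adjusted p = 0.000148). ADM had 4.02 RPKM in both EPZ015666 libraries, against 1.65 and 1.51 under DMSO (2.54-fold, 0.96 ± 0.04, adjusted p = 0.000191). With the drug ADM in COV362 was still below the lowest other line under DMSO, MDAMB436 at 5.38 RPKM. VEGFA had 5.62 and 5.64 RPKM with EPZ015666, against 3.19 and 2.97 with DMSO (1.83-fold, 0.70 ± 0.04, adjusted p = 0.000275). SLC2A1 had 19.7 and 19.9 RPKM with EPZ015666, against 14.0 and 13.7 with DMSO (1.43-fold, 0.49 ± 0.03, adjusted p = 0.000275).

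The other 4 genes had smaller changes in log2(RPKM + 1) in COV362, although the fold of PGK1 was close to that of SLC2A1. PGK1 had 4.29 RPKM in both EPZ015666 libraries, against 2.94 and 2.97 under DMSO (1.45-fold, 0.42 ± 0.03). LDHA had 69.7 and 74.6 RPKM with the drug, against 55.9 and 56.8 with DMSO (1.28-fold, 0.35 ± 0.04). BNIP3 had 3.90 RPKM in both drug libraries, against 2.99 and 3.16 with DMSO (1.27-fold, 0.27 ± 0.03). ENO1 had 250.6 and 252.9 RPKM with the drug, against 212.6 and 208.0 with DMSO (1.20-fold, 0.26 ± 0.03). The adjusted p-values of these 4 genes ran from 0.000371 to 0.00215. In each of the 8 genes both drug libraries lay above both DMSO libraries, but the share of all genes that did so is not given here. PDK1 went the other way without being tested, at 0.449 and 0.436 RPKM with the drug and 0.495 and 0.486 with DMSO. On recovered reads PDK1 was lower in COV362 by limma-voom (-0.15, adjusted p = 0.0382), and with no filter on low values its adjusted p was 0.0974. By limma-voom it did not pass in OVCAR8 at day 5 (0.24, adjusted p = 0.0715) or day 3 (0.07, 0.645), or in MDAMB436 (0.04, 0.632).

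In OVCAR8 at day 5 the same genes did not move together. VEGFA, ADM and SLC2A1 rose (3 of 8 genes, where 21.1% of all genes rose) and NDRG1, LDHA and ENO1 fell (3 of 8, where 35.1% fell). The median of the 8 was -0.09, against -0.04 over all genes. VEGFA had 1.71 and 1.81 RPKM with EPZ015666, against 0.991 and 0.982 with DMSO (1.78-fold, 0.47 ± 0.03, adjusted p = 9.07e-05). ADM had 13.2 and 13.8 RPKM with the drug, against 9.16 and 8.55 with DMSO (1.52-fold, adjusted p = 0.000261). SLC2A1 had 3.76 and 3.64 RPKM with the drug, against 2.51 and 2.67 with DMSO (1.43-fold, adjusted p = 0.000261). The libraries of these 3 genes do not overlap between drug and vehicle, though the share of all genes without overlap is not given here. NDRG1 had 1.47 and 1.45 RPKM with the drug, against 1.78 and 1.84 with DMSO (a ratio of 0.806, -0.19 ± 0.03, adjusted p = 0.00145).

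The falls of the enzymes in OVCAR8 were small. LDHA had 53.4 and 52.0 RPKM with the drug, against 56.8 and 56.9 with DMSO (-0.11 ± 0.03, adjusted p = 0.0379). ENO1 had 119.2 and 111.6 RPKM with the drug, against 124.9 and 127.7 with DMSO (-0.13 ± 0.04, adjusted p = 0.0317). Without EPZ015666 day 5 replicate B, the library with 4.55% ribosomal RNA reads, neither passed (LDHA -0.09, adjusted p = 0.156, and ENO1 -0.08, adjusted p = 0.138), while NDRG1 (adjusted p = 0.0119), VEGFA (0.00107), ADM (0.00263) and SLC2A1 (0.00218) did. The call of LDHA also ended without any one of the other day 5 or the DMSO day 3 libraries (adjusted p = 0.0683 to 0.112), and that of ENO1 without any one of the DMSO libraries (0.0609 to 0.122). BNIP3 (-0.13, adjusted p = 0.0513) and PGK1 (-0.08, adjusted p = 0.0501) stood just outside the threshold.

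At day 3 in OVCAR8 the same 3 genes rose and no member fell, where 15.6% of all genes rose and 21.4% fell. The median of the 8 was -0.004, against -0.009 over all genes. ADM had 21.1 and 22.3 RPKM with EPZ015666, against 13.2 and 12.5 with DMSO (1.69-fold, 0.72 ± 0.05, adjusted p = 0.000289). SLC2A1 had 4.48 and 4.30 RPKM with the drug, against 3.13 and 3.05 with DMSO (1.42-fold, adjusted p = 0.000524). VEGFA had 1.64 and 1.54 RPKM with the drug, against 1.05 and 1.06 with DMSO (1.501-fold, adjusted p = 0.000707). NDRG1 overlapped between the groups, at 1.496 and 1.535 RPKM with the drug and 1.55 and 1.49 with DMSO. The enzymes LDHA (-0.09, adjusted p = 0.0848) and ENO1 (-0.09, adjusted p = 0.131) did not pass.

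In BT549 at day 5, 4 of 9 genes rose and 1 fell, where 17.7% of all genes rose and 22.7% fell. The median of the 9 was 0.03, against -0.01 over all genes. ADM had 17.4 and 16.3 RPKM with EPZ015666, against 10.8 and 10.1 with DMSO (1.61-fold, 0.64 ± 0.06, adjusted p = 0.000392). SLC2A1 had 3.36 and 3.26 RPKM with the drug, against 2.28 and 2.35 with DMSO (1.43-fold, adjusted p = 0.000611). VEGFA had 6.59 and 5.93 RPKM with the drug, against 4.65 in both DMSO libraries (1.35-fold, adjusted p = 0.00608). The drug and vehicle libraries of these 3 genes do not overlap, again without a share over all genes to set beside it.

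LDHA rose to 92.0 and 93.1 RPKM with the drug in BT549 at day 5, against 79.1 and 77.1 with DMSO (1.19-fold, 0.24 ± 0.06, adjusted p = 0.0131), a call that ended without any one of the 4 libraries compared (adjusted p = 0.0545 to 0.0892). The other enzymes did not follow it, ENO1 averaging 357.2 RPKM with the drug and 357.3 with DMSO and PGK1 7.62 RPKM with the drug and 8.38 with DMSO (-0.12 ± 0.05, adjusted p = 0.0865). PDK1 fell to 1.04 and 0.994 RPKM with the drug, against 1.45 and 1.42 with DMSO, a ratio of 0.709 (-0.27 ± 0.04, adjusted p = 0.00254). In this line the transcript of lactate dehydrogenase was thus higher and that of the pyruvate dehydrogenase kinase lower at the same time. NDRG1 overlapped, at 1.61 and 1.77 RPKM with the drug and 1.56 and 1.69 with DMSO.

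At day 3 in BT549, 3 of 9 genes rose and 1 fell, where 9.22% of all genes rose and 10.8% fell. The median of the 9 was 0.09, against 0.01 over all genes. NDRG1 had 1.58 and 1.43 RPKM with EPZ015666, against 0.974 and 1.02 with DMSO (1.51-fold, 0.33 ± 0.05, adjusted p = 0.00634). ADM had 15.5 and 16.9 RPKM with the drug, against 13.3 and 12.6 with DMSO (1.25-fold, adjusted p = 0.017). SLC2A1 had 3.58 and 3.38 RPKM with the drug, against 2.85 and 2.91 with DMSO (1.21-fold, adjusted p = 0.0153). VEGFA had 5.60 and 4.98 RPKM with the drug, against 4.19 and 4.58 with DMSO, with no overlap but an adjusted p of 0.0613. PDK1 had 1.09 and 1.07 RPKM with the drug, against 1.38 and 1.22 with DMSO (-0.15 ± 0.04, adjusted p = 0.0486).

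Of the day 3 calls in BT549 that of NDRG1 passed without any one library, with an adjusted p of 0.0275 when EPZ015666 replicate A, the library with 1.39% ribosomal RNA reads, was left out. Without that library SLC2A1 had an adjusted p of 0.0562 and PDK1 of 0.098, while ADM kept 0.022. ADM ended at an adjusted p of 0.0628 without DMSO day 3 replicate B and 0.0802 without EPZ015666 day 3 replicate B. PDK1 ended without 7 of the 8 libraries of the line (0.0847 to 0.164, passing only without DMSO day 3 replicate B).

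In MDAMB436 at day 5 NDRG1 alone passed, 1 of 8 genes, where 19% of all genes rose and 23.2% fell. The median of the 8 was -0.03, against -0.01 over all genes. NDRG1 had 1.86 and 1.83 RPKM with EPZ015666, against 1.502 and 1.425 with DMSO (1.26-fold, 0.21 ± 0.03, adjusted p = 0.0107). Its adjusted p was 0.0659 without EPZ015666 replicate A and 0.0525 without EPZ015666 replicate B. ADM overlapped, at 5.35 and 5.12 RPKM with the drug and 6.01 and 4.76 with DMSO, and so did VEGFA, at 3.43 and 3.91 RPKM with the drug and 3.64 and 3.50 with DMSO. SLC2A1 had 4.21 and 4.36 RPKM with the drug, against 4.57 and 4.41 with DMSO, the only comparison in which its drug libraries were the lower ones (-0.06 ± 0.04, adjusted p = 0.286).

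BT549 and OVCAR8 were sampled at both days, with a DMSO group for each. Under DMSO NDRG1, ADM and SLC2A1 differed between the days in both lines, each with the same sign, and no other member passed in either. In BT549 NDRG1 had 1.56 and 1.69 RPKM under DMSO at day 5, against 0.974 and 1.02 at day 3 (0.40 ± 0.05, adjusted p = 0.00601), while ADM (-0.28 ± 0.06, adjusted p = 0.0259) and SLC2A1 (-0.23 ± 0.04, adjusted p = 0.0143) fell. That is 1 gene higher and 2 lower of 9, where 10.7% of all genes rose and 6.02% fell. In OVCAR8 NDRG1 had 1.78 and 1.84 RPKM under DMSO at day 5, against 1.55 and 1.49 at day 3 (0.16 ± 0.03, adjusted p = 0.00708). ADM had 9.16 and 8.55 RPKM under DMSO at day 5, against 13.2 and 12.5 at day 3 (-0.49 ± 0.05, adjusted p = 0.00185), and SLC2A1 fell by 0.19 ± 0.03 (adjusted p = 0.00894). The background there was 20.7% higher and 15.9% lower.

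Some of these time effects rest on few libraries. In BT549 ADM ended without DMSO day 5 replicate A (adjusted p = 0.0854), DMSO day 5 replicate B (0.148) or DMSO day 3 replicate A (0.0919), and SLC2A1 without DMSO day 5 replicate A (0.0991) or B (0.0794). In OVCAR8 SLC2A1 ended without DMSO day 3 replicate A (0.0556). NDRG1 passed in both lines without any one library.

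With EPZ015666 no member passed in BT549 between day 5 and day 3 in limma, with NDRG1 at 0.10 ± 0.05 (adjusted p = 0.392) and VEGFA at 0.21 ± 0.07 (adjusted p = 0.231), the only member with an unadjusted p under 0.05. Over all genes 0.384% rose and 0.464% fell, 53 of 6249 at the adjusted threshold against 943 at an unadjusted p under 0.05. On recovered reads by limma-voom 1 member passed, VEGFA (0.27, adjusted p = 0.0349). In OVCAR8 ADM had 13.2 and 13.8 RPKM with EPZ015666 at day 5, against 21.1 and 22.3 at day 3 (-0.65 ± 0.05, adjusted p = 0.00255), and SLC2A1 fell by 0.20 ± 0.03 (adjusted p = 0.0153). These were 2 of 8 genes lower, where 6.81% of all genes rose and 11.2% fell. SLC2A1 ended there without EPZ015666 day 5 replicate A (0.0556) or B (0.088) or EPZ015666 day 3 replicate A (0.0656).

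**Figure D4:**
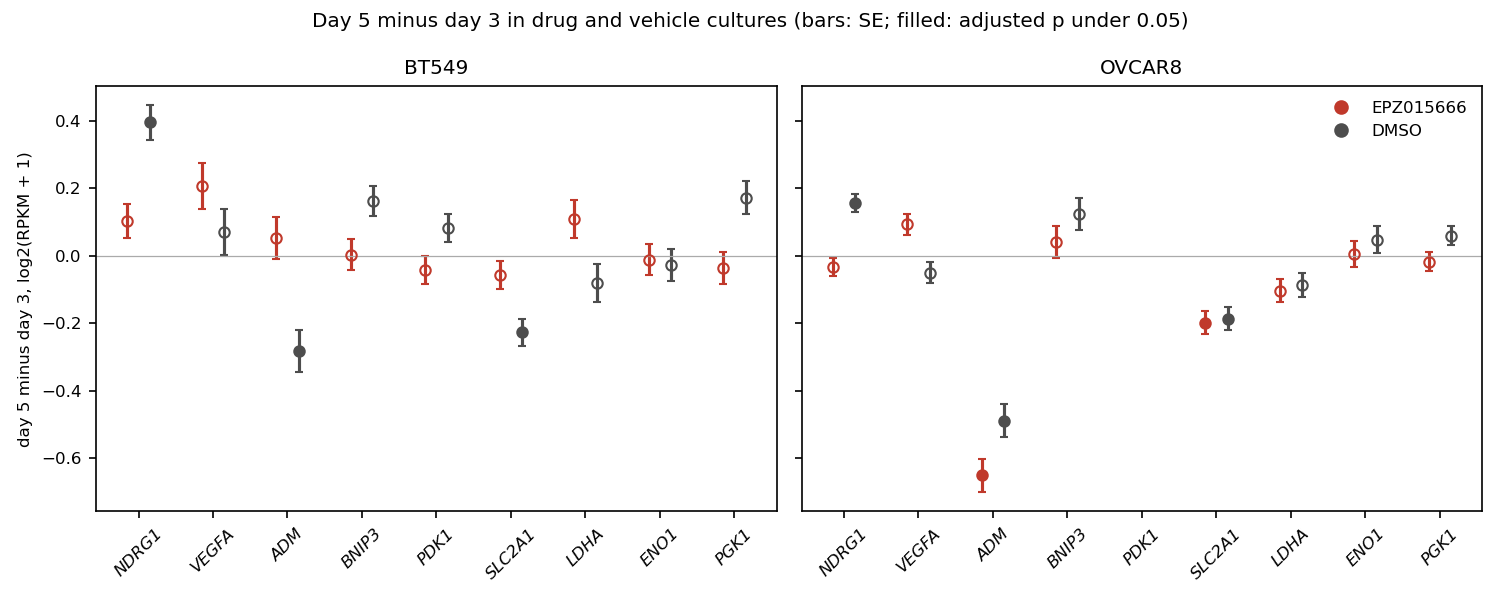
Day 5 minus day 3 in log2(RPKM + 1), with SE, in EPZ015666 cultures and in DMSO cultures of BT549 and OVCAR8, filled where the adjusted p was under 0.05 in limma. Under DMSO NDRG1 rose and ADM and SLC2A1 fell in both lines, and with EPZ015666 the changes of NDRG1 were 0.10 in BT549 and -0.03 in OVCAR8.

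The difference of the drug effects themselves, day 5 minus day 3, was tested as an interaction. In BT549 no member passed in limma, where 5.97% of all genes did (373 of 6249, and 1631 at an unadjusted p under 0.05). NDRG1 (-0.29 ± 0.07, adjusted p = 0.0619) and ADM (0.34 ± 0.09, adjusted p = 0.0704) came closest, and 6 of the 9 had an unadjusted p under 0.05. By limma-voom on recovered reads 4 members passed, NDRG1 (-0.46, adjusted p = 0.0069), ADM (0.44, 0.0164), SLC2A1 (0.32, 0.0206) and LDHA (0.27, 0.0213). In OVCAR8 NDRG1 passed, with the drug effect at day 5 minus that at day 3 at -0.19 ± 0.04 (adjusted p = 0.0411), 1 of 8 genes where 7.46% of all genes passed. Without any one of the 8 libraries it ended (adjusted p = 0.0783 to 0.124). NDRG1 averaged 1.69 RPKM with EPZ015666 at day 5 and 1.502 at day 3 in BT549, and 1.46 and 1.52 RPKM at these days in OVCAR8. Set against DMSO of day 3, NDRG1 at day 5 with EPZ015666 was 0.43 higher in BT549 (adjusted p = 0.00144) and 0.04 lower in OVCAR8 (adjusted p = 0.301), and ADM in OVCAR8 was no longer past the threshold (0.07, adjusted p = 0.319).

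Over the 4 lines at day 5 the mean drug effect was above 0 at the threshold in 6 of 8 genes, where 34.8% of all genes rose and 36.9% fell. ADM (0.53 ± 0.04, adjusted p = 3.27e-09), VEGFA (0.39 ± 0.03, adjusted p = 6.03e-09), SLC2A1 (0.30 ± 0.02, adjusted p = 2.19e-10) and NDRG1 (0.26 ± 0.02, adjusted p = 4.23e-09) had the larger means. LDHA (0.10 ± 0.02, adjusted p = 0.00111) and PGK1 (0.06 ± 0.02, adjusted p = 0.00153) had small ones, and BNIP3 (0.01 ± 0.02) and ENO1 (0.01 ± 0.02) did not pass. The effects differed between the 4 lines in the F test for each of the 8 genes, where 74.7% of all genes passed. NDRG1 had the smallest adjusted p of the 8 (adjusted p = 9.64e-10), at 0.98 in COV362, 0.21 in MDAMB436, 0.03 in BT549 and -0.19 in OVCAR8. PGK1 stood at 0.42 in COV362, 0.04 in MDAMB436, -0.08 in OVCAR8 and -0.12 in BT549.

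The mean effect of the 2 ovarian lines minus that of the 2 breast lines passed in 7 of 8 genes. All 7 had the higher mean in the ovarian lines, and 37.7% of all genes passed in either direction. ADM (0.45 ± 0.07, adjusted p = 0.000246) and VEGFA (0.39 ± 0.06, adjusted p = 9.88e-05) differed most, and SLC2A1 differed by 0.28 ± 0.03 (adjusted p = 1.84e-05). The breast line BT549 did not stand below OVCAR8 in ADM (0.64 in BT549 and 0.55 in OVCAR8) and was close to it in SLC2A1 (0.38 and 0.39). In VEGFA it had 0.36, against 0.47 in OVCAR8. MDAMB436 had the lowest effect of the lines in these genes, at -0.03 for ADM, 0.03 for VEGFA and -0.06 for SLC2A1. NDRG1 (0.27), PGK1 (0.21), BNIP3 (0.12) and ENO1 (0.11) passed with opposite signs in the 2 ovarian lines, COV362 above 0 and OVCAR8 below. BNIP3 ended without any one of 10 libraries (adjusted p = 0.0517 to 0.0835) and ENO1 without any one of 8 (0.0549 to 0.0805). LDHA did not pass (0.05 ± 0.04, adjusted p = 0.411). At day 3 the effect in OVCAR8 minus that in BT549 passed in 3 of 8 genes, where 15.5% of all genes did. It was lower for NDRG1 (-0.33 ± 0.05, adjusted p = 0.000579) and higher for ADM (0.41 ± 0.10, adjusted p = 0.0136) and SLC2A1 (0.19 ± 0.05, adjusted p = 0.0114). ADM ended without DMSO day 3 replicate B of OVCAR8 (adjusted p = 0.057) or EPZ015666 day 3 replicate B of OVCAR8 (0.0505), and SLC2A1 without EPZ015666 day 3 replicate A of OVCAR8 (0.0551).

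The members did not move as 1 group across the 12 group means, each centred on its line. Over the 36 pairs of the 9 genes Pearson's r ran from -0.591 to 0.969 with a median of 0.467, and 27 pairs were above 0. ADM and SLC2A1 were closest (r = 0.969), followed by NDRG1 and PGK1 (0.942), BNIP3 and PGK1 (0.895) and VEGFA and SLC2A1 (0.839). PDK1 ran against the others most, at -0.591 with LDHA and -0.472 with SLC2A1. Among 1552 genes with a mean of at least 5 RPKM in each line, the 3 genes most like NDRG1 were C16orf91 (0.972), AC093673.1 (0.942) and PSMD8 (0.931), and those most like PGK1 were CAP1 (0.964), ARPC2 (0.959) and BCAP31 (0.948). ENO1 was the 95th gene on the list of PGK1 (0.754), and of the members ENO1 and LDHA alone reached that level in every line. These correlations describe 12 points that share libraries and scaling. COV362 and MDAMB436 each had 1 drug and 1 DMSO group, so centring leaves mirrored values there. No median over all pairs of genes is given here to set beside that of the members.

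Upstream in the pathway, the oxygen sensors and factors had few genes above the filter. In BT549 3 of 5 rose at day 5 (17.7% of all genes) and 1 of 5 at day 3 (9.22%), in OVCAR8 2 of 3 at day 5 (21.1%) and 1 of 3 at day 3 (15.6%), and in MDAMB436 2 of 5 (19%), none falling. In COV362 1 of 4 rose and 3 fell, where 39.3% of all genes rose and 31.5% fell. With so few genes these shares are coarse. EPAS1, the alpha subunit also called HIF-2 alpha, rose in all 3 comparisons in which it was tested. It averaged 4.48 RPKM with EPZ015666 and 2.07 with DMSO in MDAMB436 (0.84 ± 0.03, adjusted p = 0.0018), 5.13 RPKM with the drug and 3.23 with DMSO in BT549 at day 5 (0.53 ± 0.05), and 4.85 RPKM with the drug and 3.49 with DMSO in BT549 at day 3 (0.38 ± 0.05). In COV362, where it was under the filter, EPAS1 had 1.22 and 1.21 RPKM with the drug, against 0.421 and 0.428 with DMSO. MDAMB436 thus had the largest tested rise of EPAS1 and the fewest members past the threshold. EGLN1, the main oxygen-sensing hydroxylase and itself a hypoxia target, rose in 4 of 6 comparisons, at most by 0.26 in BT549 at day 5. VHL rose in OVCAR8 at day 5 (0.30 ± 0.03) and in MDAMB436 (0.13 ± 0.03) and fell in COV362 (-0.33 ± 0.03), where ARNT also fell (-0.18 ± 0.02).

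The wider hypoxia targets, 28 genes written from general knowledge with 26 in the table, were mixed. In BT549 at day 3, 9 of 22 rose and 1 fell (median 0.13, against 0.01 over all genes, of which 9.22% rose and 10.8% fell), led by FAM162A (0.39 ± 0.07) and CA12 (0.38 ± 0.04), with LOXL2 the gene that fell (-0.19 ± 0.05). At day 5 in BT549, 6 of 22 rose and 3 fell, where 17.7% of all genes rose and 22.7% fell, with BHLHE40, a clock-linked repressor, at 23.4 RPKM under the drug and 15.4 under DMSO (0.57 ± 0.05) and LOXL2 (-0.49 ± 0.05) and CA9 (-0.39 ± 0.05) lower. CA9, the carbonic anhydrase used as a hypoxia marker, had risen at day 3. With the drug it averaged 1.74 RPKM at day 3 and 1.77 at day 5, while under DMSO it averaged 1.29 and 2.63. In OVCAR8, 5 of 11 rose and 4 fell at day 5 (21.1% and 35.1% of all genes), and 3 of 11 rose and 2 fell at day 3 (15.6% and 21.4%). DDIT4, an inhibitor of mTOR signalling, averaged 11.1 RPKM with the drug and 5.54 with DMSO in OVCAR8 at day 5 (0.88 ± 0.06).

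In COV362, 7 of 12 rose and 2 fell (median 0.18, against 0.03 over all genes, of which 39.3% rose and 31.5% fell). DDIT4 averaged 52.6 RPKM with the drug and 70.6 with DMSO there (-0.42 ± 0.03), the opposite sign to OVCAR8. STC2, the glycoprotein stanniocalcin, rose in 4 of 6 comparisons, most in COV362 at 17.5 RPKM with the drug and 7.97 with DMSO (1.04 ± 0.02). In MDAMB436, 5 of 11 rose and 2 fell, where 19% of all genes rose and 23.2% fell, led by the lipid droplet protein PLIN2 (0.61 ± 0.04) and STC2 (0.40 ± 0.04). BHLHE40 rose in 5 of 6 comparisons and fell in none.

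Of the other enzymes and transporters of glycolysis, the mean effect over the 4 lines at day 5 was lower in 9 of 12 and higher in 3, where 36.9% of all genes were lower and 34.8% higher. PFKL, the liver-type phosphofructokinase at the committed step, fell in 6 of 6 comparisons, most in BT549 at day 5 with 4.50 RPKM under the drug and 8.43 under DMSO (-0.78 ± 0.07, adjusted p = 0.000256). In OVCAR8 at day 5, 8 of 13 fell and none rose (median -0.27, against -0.04 over all genes, of which 35.1% fell and 21.1% rose), with the neuronal enolase ENO2 at 14.7 RPKM with the drug and 27.7 with DMSO (-0.87 ± 0.04) and GAPDH at 592.7 RPKM with the drug and 848.7 with DMSO (-0.52 ± 0.03). At day 3 in OVCAR8, 6 of 13 fell and none rose (21.4% and 15.6% of all genes). In BT549, 3 of 13 rose and 5 fell at day 5 (17.7% and 22.7% of all genes), and none rose and 2 fell at day 3 (9.22% and 10.8%). In MDAMB436, 3 of 14 rose and 6 fell (19% and 23.2% of all genes). In COV362, 6 of 14 rose and 4 fell, near the 39.3% and 31.5% of all genes, with the transporter SLC2A3 at 2.60 RPKM with the drug and 0.915 with DMSO (0.91 ± 0.03), the hexokinase HK1 at 2.10 RPKM with the drug and 1.10 with DMSO (0.56 ± 0.03), and PFKL at 2.67 RPKM with the drug and 4.51 with DMSO (-0.59 ± 0.03). HK2, the inducible hexokinase, rose in 3 of the 4 comparisons in which it was tested. The rises in COV362 were thus not those of every step, since GAPDH fell there (-0.37 ± 0.04).

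**Figure D5:**
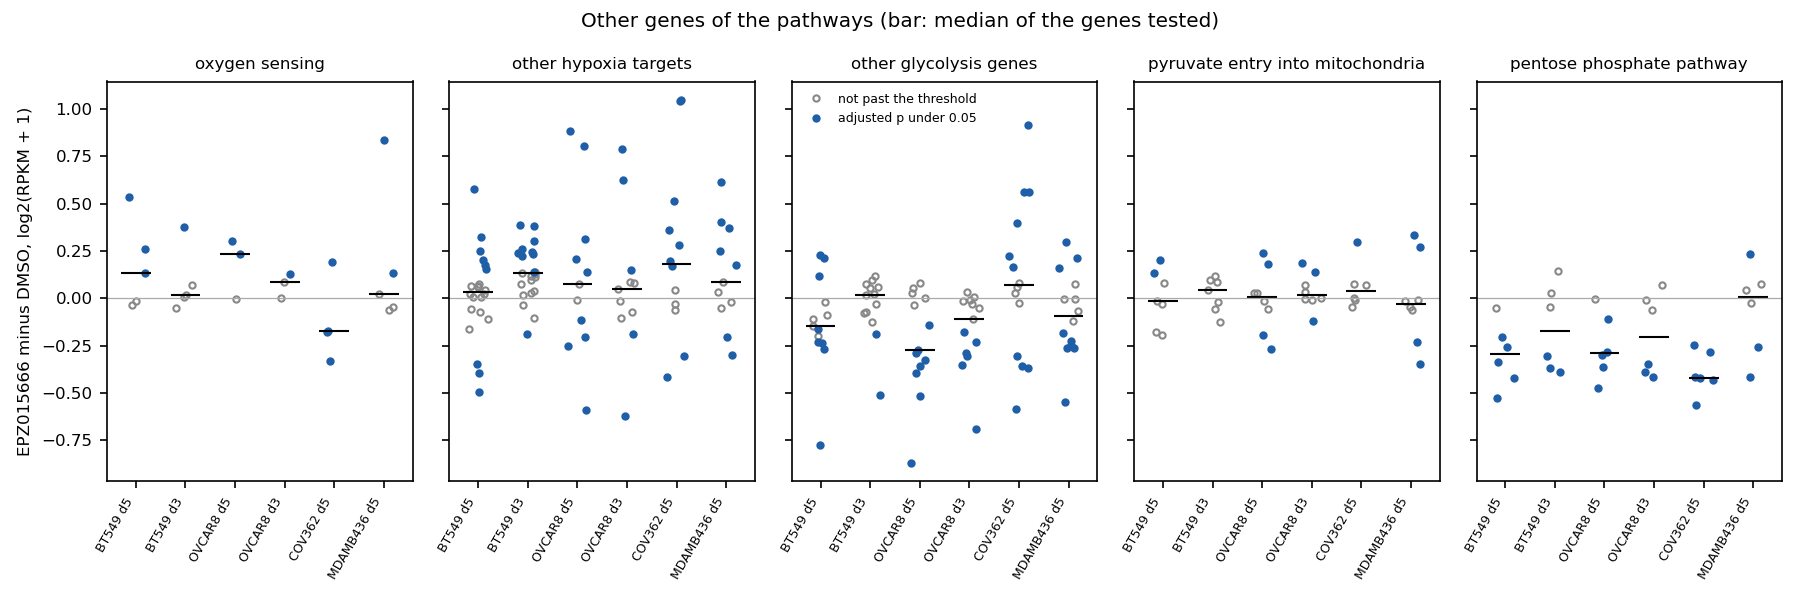
EPZ015666 minus DMSO in log2(RPKM + 1) for the tested genes of 5 lists in the 6 comparisons, filled where the adjusted p was under 0.05 in limma, with a bar at the median of each list. The pentose phosphate genes lie below 0 in most columns, with a median of -0.42 in COV362, while hypoxia targets lie on both sides.

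Genes of the pentose phosphate pathway, which branches off early glycolysis, were lower in part or all in each comparison. All 6 tested fell in COV362 (median -0.42), where 31.5% of all genes fell. At day 5, 5 of 6 fell in OVCAR8 (median -0.29, 35.1% of all genes) and in BT549 (median -0.30, 22.7%). At day 3, 3 of 6 fell in OVCAR8 (21.4% of all genes) and in BT549 (10.8%), and none rose in these 5 comparisons. In MDAMB436, 1 of 6 rose and 2 fell, where 19% of all genes rose and 23.2% fell. TALDO1 (transaldolase) fell in 6 of 6 comparisons, to 7.03 RPKM with the drug in COV362, against 10.9 with DMSO (-0.57 ± 0.03). Of the genes that govern pyruvate entry into mitochondria, 2 of 8 rose and 2 fell both in OVCAR8 at day 5 (21.1% and 35.1% of all genes) and in MDAMB436 (19% and 23.2%), and 2 of 8 rose and 1 fell in OVCAR8 at day 3 (15.6% and 21.4%). In BT549 2 of 7 rose at day 5 (17.7% of all genes) and none passed at day 3, and in COV362 1 of 6 rose (39.3%). DLAT, a core subunit of pyruvate dehydrogenase, and the pyruvate carrier subunit MPC2 rose in 3 of 6 comparisons each. PDHA1, the catalytic subunit of pyruvate dehydrogenase, fell in 3 of 6 comparisons, most in MDAMB436 (-0.35 ± 0.04), and the phosphatase PDP1, which opposes the PDK kinases, rose in MDAMB436 (0.33 ± 0.03) and in OVCAR8 at day 5 (0.24 ± 0.04). MPC1, the other carrier subunit, rose in COV362 (0.30 ± 0.03).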

How the data were processed

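Poly(A) RNA of 24 cultures (RNeasy Plus Mini Kit) was sequenced on stranded libraries prepared by Novogene, per the labels' protocols. The deposited values are RPKM per gene symbol made by the authors. Reads were counted with featureCounts on GRCh38, per the submitters' processing notes; for the aligner, versions, annotation and strand setting the record is silent: not given in the sources used here. Dividing the deposited values by 1 read per GENCODE v29 gene span gave whole reads (tolerance 0.02, values under 1000 reads) for 100% of the values of the 16544 symbols with 1 span; 47 symbols had none. Recovered reads were used for depth and in 1 alternative, where they were scaled to their own sum in each library.

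The values were tested as log2(RPKM + 1) with limma 3.58.1 (R 4.3.3, trend) and Benjamini-Hochberg adjustment over all genes with a mean of at least 1 RPKM in the line, or in each of the 4 lines for contrasts across lines, at a threshold of 0.05. BT549 and OVCAR8 were each fitted with both days together. The fits of the drug effects were also run on simulated data with the same spread for every gene and group. The groups here differed in spread, so no support is taken from that run. The genes described and the lists were chosen with earlier results of these data known. Of each list and comparison the genes named in the text are the 2 with the largest change in each direction past the threshold, with others taken for their counts over the 6 comparisons after their values were seen. Alternatives were a pseudocount of 0.1, no filter, a filter at 5 RPKM, median-of-ratios scaling, a replicate block, limma-voom on recovered reads, 1 fit of all libraries, fits of 4 libraries, DMSO of day 3 as the vehicle group for day 5, and leaving out each library in turn. The letters A and B were not taken as pairs. Values of some genes of these lists are not reported here.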

Additional observations from a re-analysis of the deposited data

Results flagged for a closer look

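The effects of EPZ015666 differed between lines for all 8 genes tested in every line, by the F test of limma on the day 5 effects. So did the effects of 74.7% of all genes tested. The adjusted p was 9.64e-10 for NDRG1, 2.6e-07 for PGK1, 5.15e-07 for SLC2A1 and 7.54e-06 for ADM. It was 1.51e-05 for LDHA, 2.84e-05 for VEGFA, 5.09e-05 for ENO1 and 0.000108 for BNIP3. The test of the ovarian minus the breast effect gave 0.451 for ADM, 0.391 for VEGFA, 0.276 for SLC2A1, 0.272 for NDRG1, 0.21 for PGK1, 0.121 for BNIP3 and 0.112 for ENO1, in log2(RPKM + 1). Of all genes 37.7% passed that test in either direction. With 2 lines of each tissue, tissue and line cannot be told apart.

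At day 3 the effect in OVCAR8 minus that in BT549 was -0.33 for NDRG1, 0.413 for ADM and 0.191 for SLC2A1, where 15.5% of all genes passed. Within OVCAR8 the effect on NDRG1 at day 5 minus that at day 3 was -0.188, where 7.46% of all genes passed.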

How the results depend on the processing

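In COV362 all 8 calls of higher genes held without any one library. Of the values of members, under the other settings 1117 kept their side of the threshold, 37 passed only there, 26 no longer passed and none turned round; leaving out single libraries, 2775 kept it, 5 passed only there and 76 no longer passed. Levels rest on RPKM per span, and PDK1 was under the filter in 3 lines (0.210 RPKM in OVCAR8, 0.467 in COV362 and 0.869 in MDAMB436). With 2 libraries a group, a library left alone is taken to vary as the other groups do.

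With a filter at a mean of 5 RPKM fewer genes were tested, and fewer members. In COV362 only SLC2A1, LDHA and ENO1 reached it (16.8, 64.2 and 231.0 RPKM), and only LDHA and ENO1 reached it in every line. A lower count of members can therefore mean genes not tested and not calls lost. Members past the threshold then numbered 1 in BT549 at day 3, 3 at day 5, 1 in OVCAR8 at day 3, 3 at day 5, 3 in COV362 and 0 in MDAMB436. They numbered 1 for OVCAR8 vehicle time, 1 for its drug culture time, 0 for its day interaction, 1 for the mean effect, 2 between lines, 1 for ovarian minus breast, 0 for the day 3 difference and 2 for vehicle level. All genes past it numbered 516, 1102, 973, 1490, 1824 and 1172 in the 6 drug comparisons in the same order. They numbered 590 for BT549 vehicle time, 231 for its day interaction, 1022 for OVCAR8 vehicle time, 589 for its drug culture time, 1129 for the mean effect, 1182 between lines, 601 for ovarian minus breast, 291 for the day 3 difference and 1530 for vehicle level. With no filter, which tests more genes, they numbered 5730 in OVCAR8 at day 5, 7266 in COV362, 113 for the BT549 day interaction, 149 (0 members) for that of OVCAR8, 9406 for the mean effect, 9688 between lines, 5247 for ovarian minus breast, 2201 for the day 3 difference and 14596 for vehicle level.

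By limma-voom on recovered reads 3031, 5434, 4778, 6871, 8824 and 5837 genes passed in the 6 drug comparisons in the order above, with 2 members in MDAMB436. The counts were 2625 for BT549 vehicle time, 553 (1 member) for its drug culture time, 1474 (4 members) for its day interaction, 4435, 2701 and 1700 for the same in OVCAR8, 7578 for the mean effect, 7994 between lines, 3956 for ovarian minus breast, 1688 for the day 3 difference and 10633 for vehicle level. In 1 fit of all 24 libraries 2487 genes passed in BT549 at day 3, 2 members in MDAMB436, 2275 genes (6 members) for BT549 vehicle time, 636 (1 member) for its drug culture time, 1591 (6 members) for its day interaction and 832 genes for that of OVCAR8. A fit of the 4 libraries alone gave 548 genes and 1 member in BT549 at day 3. The cause of these shifts was not tested.

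With the replicate block 2 genes passed for BT549 drug culture time, 91 for its day interaction, 662 for OVCAR8 drug culture time and 5 (0 members) for its day interaction, where NDRG1 had an adjusted p of 0.0831. The letters do not pair the libraries (correlations of deviations -0.503 to 0.214, with 2 letters). A crossed replicate block in BT549 at day 3 (r = -0.196), chosen after seeing the data, gave 1462 genes and 4 members. With DMSO of day 3 for day 5, 3 members passed in OVCAR8, and in BT549 CA9 was 0.274 and ENO2 0.0647, both below 0 against DMSO of day 5; the cause was not tested.

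Leaving out each library in turn gave 615 to 1125 genes and 2 to 3 members in BT549 at day 3, 1381 to 2800 genes at day 5, 1383 to 2236 in OVCAR8 at day 3, and 1323 to 2385 genes and 0 to 1 members in MDAMB436. It gave 158 to 1120 genes and 1 to 4 members for BT549 vehicle time, 0 to 56 genes for its drug culture time and 0 to 609 for its day interaction. For OVCAR8 it gave 1173 to 2310 genes for vehicle time, 225 to 1028 genes and 1 to 2 members for drug culture time, and 0 to 6 genes and 0 members for the day interaction. The day 3 difference had 442 to 951 genes.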
